A study of Mus musculus with 12 samples.

Results

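Cortical mouse astrocytes that carried a short hairpin RNA against PTB (shPTB) and had been kept for 4 weeks in neuronal differentiation medium were compared with the same kind of culture kept for 2 weeks, by RNA sequencing of every annotated gene. The comparison rests on 4 of the 12 libraries of the series, 2 at 4 weeks and 2 at 2 weeks, chosen by their labels alone. All 4 came from C57BL/6 cortex, received the hairpin and were grown in neuronal differentiation medium, so that the weeks in culture are the only labelled difference between them. The 2 shPTB midbrain libraries at 4 weeks and the 2 at 2 weeks entered the same fit, where they added to the estimate of the spread and gave a second 4-to-2-week change to test against. The 4 mock libraries (2 of each region, in growth medium without the hairpin) were left out of the fit and are quoted as levels only. The series asks how gene expression turns from an astrocyte to a neuronal pattern when PTB is depleted. The labels do not state how the hairpin was delivered or whether the 2 libraries of a group came from separate cultures, and the spread behind each p-value is that between these libraries, which may be technical.

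PTB, the protein of Ptbp1, is an RNA-binding repressor of neuron-specific exons, and its neuronal paralogue Ptbp2 takes over when PTB falls. Astrocytes clear glutamate, buffer potassium and deliver cholesterol in apolipoprotein E particles, and after injury or exposure to cytokines they switch on a reactive set of genes that includes Serpina3n, Lcn2 and C3. Type I interferons act through a complex that holds STAT2 and IRF9 and binds a promoter element built of a TTTC pair, and they switch on antiviral genes of the Ifit, Oas and Mx families.

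The promoter sequences below are shown because the interferon-stimulated genes fell together in this comparison, and because the element that their factor binds can be read in them. Each is a stretch of the RefSeq window around the annotated start (GRCm38.p6), written 5′ to 3′ along the gene's strand, with the element (TTTC and TTTC with any 2 bases between them, searched on both strands) in capitals. On the opposite strand the element reads GAAA and GAAA, as in Bst2 and Igtp. The stretches of Ifit1 and Bst2 each hold 2 matches, which overlap in Bst2.
Ifit1 (chr19:34640760-34640819, plus strand): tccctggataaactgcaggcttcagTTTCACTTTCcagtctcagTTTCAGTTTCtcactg
Ifit3 (chr19:34583348-34583407, plus strand): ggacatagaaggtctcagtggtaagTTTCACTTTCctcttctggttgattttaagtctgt
Rsad2 (chr12:26456538-26456597, minus strand): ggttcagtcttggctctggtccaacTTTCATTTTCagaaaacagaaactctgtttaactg
Stat2 (chr10:128270251-128270310, plus strand): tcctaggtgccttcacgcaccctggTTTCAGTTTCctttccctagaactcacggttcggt
Igtp (chr11:58199497-58199556, plus strand): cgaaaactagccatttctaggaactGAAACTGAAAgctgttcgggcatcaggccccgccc
Bst2 (chr8:71537568-71537627, minus strand): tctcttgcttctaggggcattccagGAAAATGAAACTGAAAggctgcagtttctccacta
Of the 21 interferon-stimulated genes with a RefSeq window, 14 held the element, which is 66.7%, against 3.99% of all 27025 genes with such a window. The whole window was searched, which is longer than the stretches printed. Among members tested here the share was 13 of 19 (68.4%), and among called members 9 of 13 (69.2%). A match describes the letters and does not show that a factor was bound.

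The 2 libraries at 4 weeks held 7958229 and 7666778 assigned reads, and the 2 at 2 weeks held 6022098 and 7228061. Values are given as CPM, read counts scaled to library size by trimmed means (TMM), not divided by gene length, so they compare libraries and not genes. No molecular identifiers are described, so all floors and intervals cover counting error only. Agreement within a pair was measured over genes above a minimum mean level in that pair. Of these genes, 0.314% at 4 weeks and 0.274% at 2 weeks lay more than 2-fold apart between the libraries of a pair. Scarcer genes, among them many named below, are not covered by these shares. Both pairs differed by more than sampling noise. Gfap, the astrocyte filament protein, was abundant in all 4 libraries, with 10139.9 and 10358 CPM at 4 weeks, against 10008 and 10569 CPM at 2 weeks, and Rbfox3, which encodes the neuronal nuclear protein NeuN, was near the floor, with 0.149 and 0.474 CPM at 4 weeks, against 1.40 and 2.02 CPM at 2 weeks. Mitochondrially encoded genes took 47.8% and 48.3% of reads at 4 weeks, against 37.8% and 38.7% at 2 weeks.

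Of 12382 genes tested, 2911 (23.5%) differed between 4 and 2 weeks at a Benjamini-Hochberg adjusted p under 0.05 in edgeR's quasi-likelihood test. Of all genes tested, 11.2% were higher at 4 weeks and 12.3% were lower, which are 1392 and 1519 genes. These shares are the background for every list below, and the median log2 fold change over all genes was -0.01. The large changes were mostly falls: among the called genes, 805 fell 2-fold or more and 140 rose 2-fold or more. Scaling to total reads in place of TMM shifted the median over all genes to -0.33, and calls then split into 360 higher and 3719 lower. The share of calls that were higher was thus 47.8% under TMM and 8.83% under total reads, so that small rises are relative to the other genes. An offset for the average length of each gene's transcripts, called the length offset below, gave 2909 calls, of which 2019 were shared with those above. That offset assumes that reads grow with transcript length. Whether this holds for the library protocol described below was not tested. With all 12 libraries in the fit, mock included, 377 of 14584 genes tested were called, 68 higher and 309 lower. By the measure above, which leaves out scarce genes, 14.8% of genes in the cortical mock pair and 11.2% in the midbrain mock pair lay more than 2-fold apart. The part of that spread in the lower count was not tested. The lists with the most calls in that fit were led by the interferon-stimulated genes (0 higher and 12 lower of 28 tested). After them came the matrix genes (0 higher and 9 lower of 30) and the reactive astrocyte genes (0 higher and 8 lower of 23). The neuronal cytoskeleton genes (0 higher and 7 lower of 20) and the microglial markers (0 higher and 6 lower of 20) followed. Of 157 called genes named below, 67 were called in that fit. Unless that fit is named, the lists of lost calls in the paragraphs below leave it out.

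**Figure D1:**
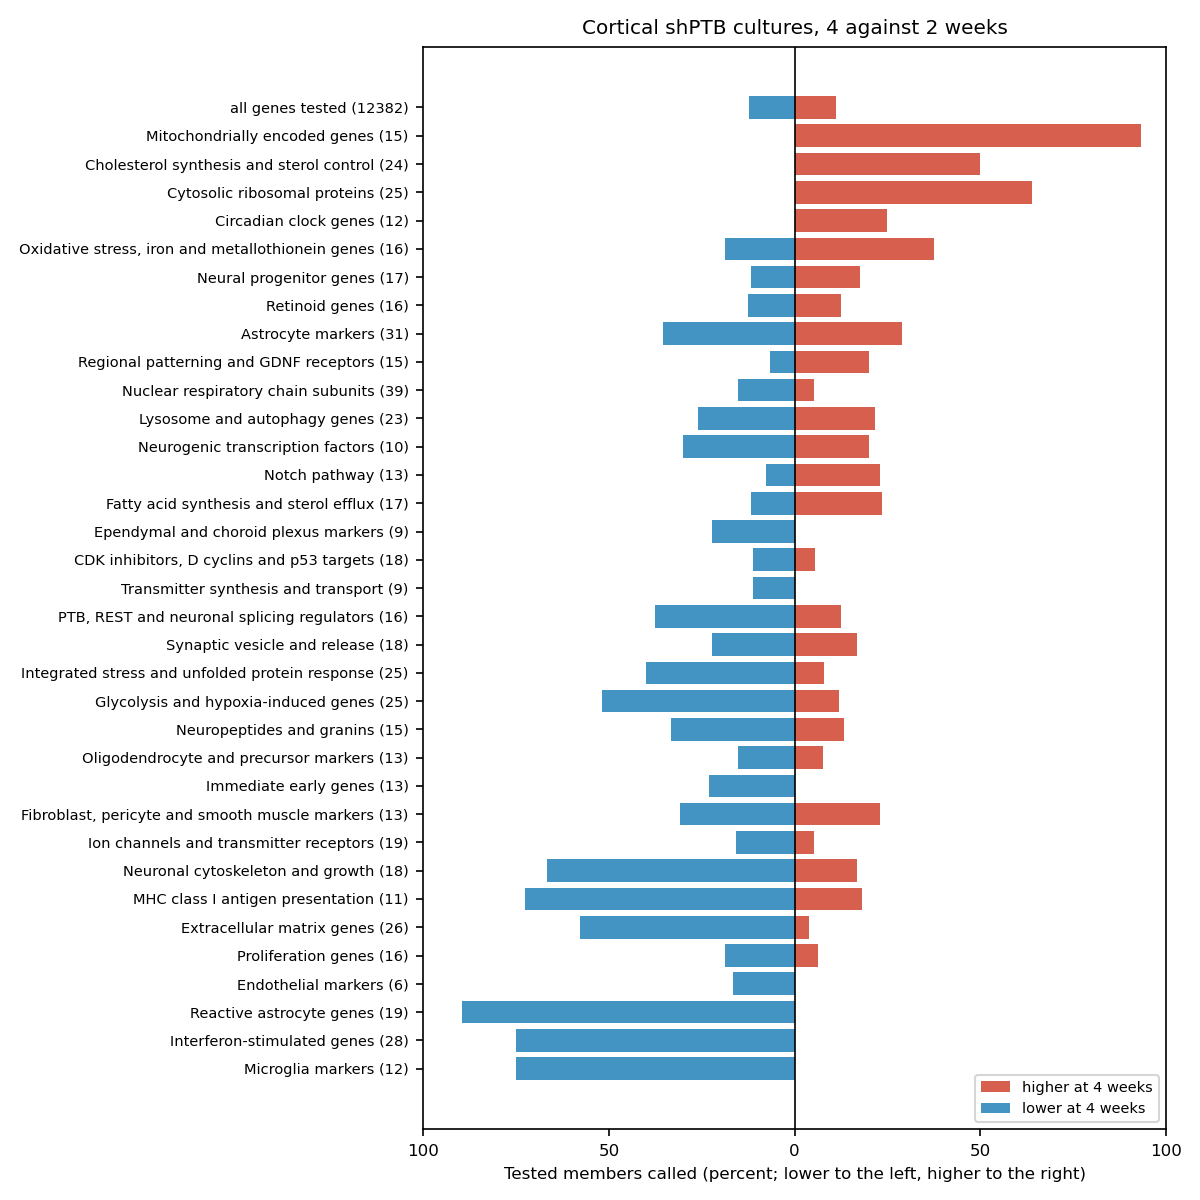
Share of tested members called higher (right of 0) or lower (left of 0) at 4 weeks, against 2 weeks, in each of the 34 gene lists, in percent, with the number tested in brackets and all genes tested in the top row. Reactive, interferon-stimulated and microglial genes reach furthest to the left, and mitochondrially encoded, ribosomal protein and cholesterol genes reach furthest to the right.

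Most reactive astrocyte genes that could be tested fell: 17 of 19 tested members were lower at 4 weeks and 0 higher, with a median log2 fold change of -1.45. Their summed level was 2179 and 2161 CPM at 4 weeks, against 8403 and 8617 CPM at 2 weeks, most of it Lcn2, C3 and Serpina3n. Serpina3n, a secreted serine protease inhibitor, had 173 and 169 CPM at 4 weeks, against 1387 and 1405 CPM at 2 weeks. Lcn2, the iron-siderophore carrier lipocalin-2, had 644 and 616 CPM at 4 weeks, against 3824 and 4058 CPM at 2 weeks. C3, the central complement component, had 982 and 1016 CPM at 4 weeks, against 2421 and 2389 CPM at 2 weeks. Each of these abundant transcripts lay lower in both 4-week libraries than in both 2-week libraries, with a log2 fold change of -3.03 ± 0.05 for Serpina3n, -2.64 ± 0.05 for Lcn2 and -1.27 ± 0.04 for C3 (± SE), with adjusted p of 1.04e-43, 4.30e-43 and 7.91e-30. Timp1, an inhibitor of matrix metalloproteases, had 2.09 and 1.74 CPM at 4 weeks, against 12.6 and 9.98 CPM at 2 weeks. Steap4, a metalloreductase, had 3.89 and 3.0 CPM at 4 weeks, against 20.6 and 18.6 CPM at 2 weeks. Cp, the copper ferroxidase ceruloplasmin, had 10.3 and 7.11 CPM at 4 weeks, against 43.5 and 43.8 CPM at 2 weeks. Falls of these 3 genes were -2.54 ± 0.27, -2.50 ± 0.22 and -2.32 ± 0.13 on the log2 scale. Cd44, the hyaluronan receptor, had 13.8 and 11.1 CPM at 4 weeks, against 42.7 and 41.9 CPM at 2 weeks, and Osmr, the oncostatin M receptor, had 4.04 and 3.63 CPM at 4 weeks, against 13.9 and 9.57 CPM at 2 weeks, both lower (-1.77 ± 0.13 and -1.59 ± 0.23). Gbp2, an interferon-inducible GTPase, had 199 and 202 CPM at 4 weeks, against 441 and 442 CPM at 2 weeks, a fall of 2.20-fold. Stat3, which carries cytokine signals into this program, fell, with 17.6 and 16.3 CPM at 4 weeks, against 25.6 and 23.3 CPM at 2 weeks (log2 fold change -0.52 ± 0.15, adjusted p = 0.00723). Cd14, a co-receptor for bacterial lipopolysaccharide, was counted in few reads, 2 over both 4-week libraries and 20 over both 2-week libraries, and was lower at 4 weeks by 9.42-fold (exact 95% interval 2.29 to 83.1). S100a10, with 17.8 and 17.4 CPM at 4 weeks, against 16.2 and 15.5 CPM at 2 weeks, did not pass the test. In midbrain cultures the list had 2 members higher and 6 lower at 4 weeks, with a median of -0.10, where 15.9% of all genes were higher and 15.7% lower. With 1 library left out, calls ended for Stat3 without 4-week replicate 2 (adjusted p = 0.0632) or 2-week replicate 1 (adjusted p = 0.0775) and Cd14 without any one library (adjusted p from 0.0647 to 0.110). Calls also ended with the length offset for Osmr and Stat3, and in DESeq2 for Stat3 and Cd14.

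The interferon-stimulated genes, some of whose promoters are printed above, all moved one way where they passed the test: 21 of 28 tested members were lower at 4 weeks and 0 higher, with a median of -1.57. Their summed level was 141 and 153 CPM at 4 weeks, against 397 and 405 CPM at 2 weeks. Among the transducers of the signal, Stat2 had 11.4 and 14.4 CPM at 4 weeks, against 25.9 and 29.5 CPM at 2 weeks. Irf9, the DNA-binding subunit, had 26.0 and 29.4 CPM at 4 weeks, against 57.2 and 56.4 CPM at 2 weeks. Both were lower in each of the 4-week libraries, with log2 fold changes of -1.11 ± 0.15 and -1.04 ± 0.10. Irf7, the factor that amplifies interferon production, had 1.20 and 1.42 CPM at 4 weeks, against 13.7 and 9.71 CPM at 2 weeks (log2 fold change -3.14 ± 0.31, adjusted p = 7.08e-12), and an overlapping gene, Phrf1, could share its reads, since strand was not stated. Usp18, which dampens receptor signalling, had 1.35 and 1.26 CPM at 4 weeks, against 12.6 and 15.1 CPM at 2 weeks (log2 fold change -3.40 ± 0.28, adjusted p = 3.10e-14). Of the antiviral effectors, Ifit1, which binds foreign RNA ends, had 10.6 and 9.16 CPM at 4 weeks, against 50.4 and 59.3 CPM at 2 weeks. Oasl2, of the oligoadenylate synthetase family, had 2.24 and 1.89 CPM at 4 weeks, against 24.5 and 30.6 CPM at 2 weeks. Zbp1, a sensor of Z-form nucleic acid, had 0.299 and 0.789 CPM at 4 weeks, against 8.11 and 7.55 CPM at 2 weeks. The changes of these 3 effectors were -2.47 ± 0.13, -3.73 ± 0.22 and -3.82 ± 0.40, without overlap between the groups. Rsad2 (viperin) and Bst2 (tetherin) fell, with log2 fold changes of -1.80 ± 0.36 and -2.95 ± 0.46, as did Igtp, an immunity-related GTPase (-1.50 ± 0.19). Oas1b was not read in either 4-week library and had 17 reads over both 2-week libraries. That is at least 5.34-fold lower when the 4-week group is set to a floor of 3 reads over the group. About 16.6% of the 31-base words near the 3′ end of Oas1b also occur in other genes. Ifit3, with 32.1 and 38.1 CPM at 4 weeks, against 63.6 and 61.2 CPM at 2 weeks and about 24.0% of its 3′ sequence shared with Ifit3b, had a log2 fold change of -0.83 ± 0.10. The members without a call include Xaf1, with 3.14 and 3.63 CPM at 4 weeks, against 5.61 and 5.12 CPM at 2 weeks, and Ifit2, with 0.149 and 1.58 CPM at 4 weeks, against 1.09 and 0.539 CPM at 2 weeks. The log2 fold change of Zbp1 was -4.67 without 4-week replicate 2. Stat2 lost its call with the length offset.

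**Figure D2:**
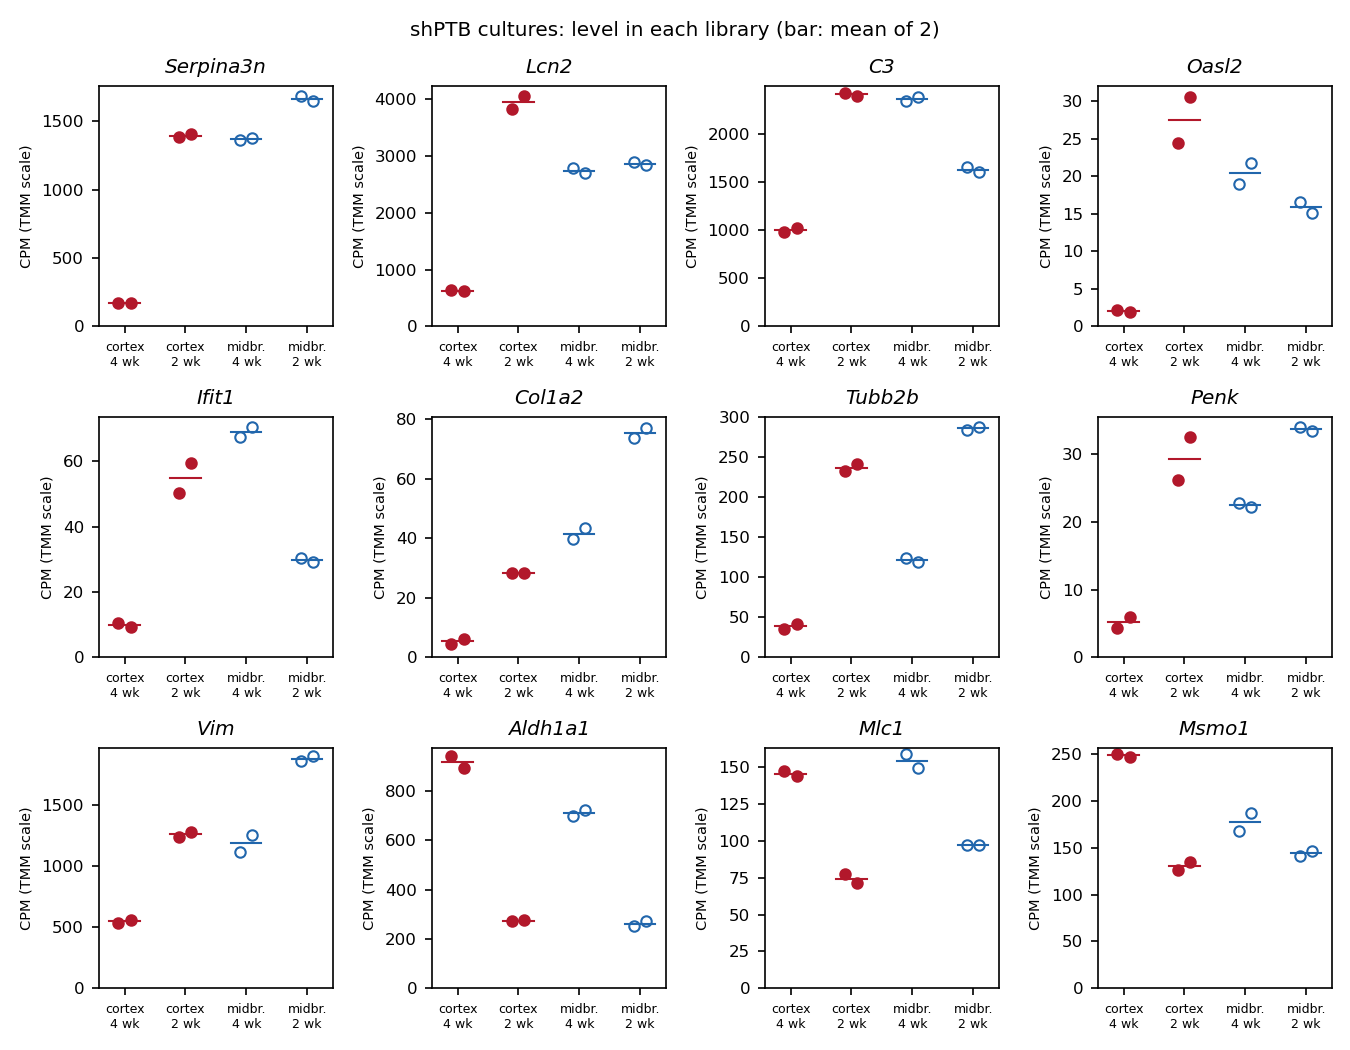
Level in CPM (read counts scaled to library size, linear axes from 0) of 12 genes in each library, with 4-week cultures left of 2-week cultures, cortex in filled circles and midbrain in open circles, and a bar at each mean of 2. The cortical pairs do not overlap in any of the 12 panels, and midbrain Serpina3n (1364 and 1382 CPM at 4 weeks, against 1684 and 1649 CPM at 2 weeks) shows a smaller step than cortical Serpina3n.

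Genes of MHC class I presentation moved with them in part, with 8 of 11 tested members lower, 2 higher and a median of -0.79. H2-K1, a class I heavy chain, had 55.2 and 60.2 CPM at 4 weeks, against 112 and 98.4 CPM at 2 weeks (log2 fold change -0.87 ± 0.08, adjusted p = 1.12e-12). Tap1, one chain of the peptide transporter, had 1.20 and 1.58 CPM at 4 weeks, against 4.21 and 4.18 CPM at 2 weeks, and Nlrc5, the class I transactivator, had 0.747 and 1.26 CPM at 4 weeks, against 2.81 and 3.10 CPM at 2 weeks, and overlaps a gene on the other strand. Psmb8 and Psmb10, catalytic subunits of the immunoproteasome, had log2 fold changes of -0.77 ± 0.20 and -0.79 ± 0.14. B2m, the invariant light chain, went the other way under TMM, with 86.5 and 83.2 CPM at 4 weeks, against 65.8 and 77.1 CPM at 2 weeks, and its sign reversed (-0.080) when libraries were scaled to total reads. H2-T23, a non-classical class I gene, rose to 49.8 and 44.7 CPM at 4 weeks, against 3.59 and 4.99 CPM at 2 weeks (log2 fold change 3.44 ± 0.23, adjusted p = 4.83e-10), but 37.1% of its 3′ 31-base words also occur in other genes, so its count is uncertain. Calls lost with 1 library left out were those of Nlrc5 without 4-week replicate 1 (adjusted p = 0.116) or 2-week replicate 2 (adjusted p = 0.0563), Psmb8 without 2-week replicate 2 (adjusted p = 0.0700) and B2m without 4-week replicate 1 (adjusted p = 0.279), 4-week replicate 2 (adjusted p = 0.128) or 2-week replicate 1 (adjusted p = 0.401). Calls also ended in DESeq2 for Nlrc5 and B2m, and under total-read scaling, without a count filter, under the strict filter, in a fit of the 4 cortical libraries alone, in limma and with pseudogenes left out for B2m.

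Markers of microglia, the immune cells of the brain, were present at low levels and fell in the same libraries. Over the 20 listed markers the summed level was 98.5 and 102 CPM at 4 weeks, against 312 and 309 CPM at 2 weeks. The mock cortical libraries held 1989 and 3019.8 CPM. Of 12 tested markers, 9 were lower and 0 higher at 4 weeks, with a median of -1.62. Fcer1g, the Fc receptor gamma chain, had 14.3 and 12.2 CPM at 4 weeks, against 95.7 and 100.5 CPM at 2 weeks (log2 fold change -2.88 ± 0.11, adjusted p = 6.31e-27). Spi1, the myeloid transcription factor PU.1, had 9.42 and 10.3 CPM at 4 weeks, against 48.6 and 48.4 CPM at 2 weeks (log2 fold change -2.30 ± 0.14, adjusted p = 7.94e-19). Csf1r, the receptor on which microglia depend for survival, had 2.09 and 2.53 CPM at 4 weeks, against 9.51 and 9.30 CPM at 2 weeks, with an overlapping gene (Hmgxb3) that could share its reads. The defining markers Cx3cr1 and Aif1 had 4 and 2 reads over both 4-week libraries, against 3 and 2 over both 2-week libraries, too few to test. P2ry12, with 8.37 and 4.42 CPM at 4 weeks, against 5.46 and 4.85 CPM at 2 weeks, did not pass the test. The microglial fall was also present in midbrain cultures, where 8 markers were lower and 0 higher (median -1.17), where the interferon-stimulated list had 9 higher and 1 lower and the reactive list 2 higher and 6 lower. The part of the microglial markers in the falls of interferon-stimulated and reactive genes was not tested. In bulk samples, fewer cells of a type and less RNA per cell cannot be told apart.

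Other cell types were checked in the same way. Summed over the whole lists, markers of oligodendrocytes and their precursors had 426 and 414 CPM at 4 weeks, against 403 and 428 CPM at 2 weeks, with 1 of 13 tested higher and 2 lower. Cldn11, a myelin tight-junction protein, had 1.94 and 1.89 CPM at 4 weeks, against 8.11 and 6.88 CPM at 2 weeks, and Olig1, a lineage factor, had 17.5 and 16.1 CPM at 4 weeks, against 29.9 and 31.4 CPM at 2 weeks, both lower at 4 weeks (-1.95 ± 0.33 and -0.87 ± 0.14). Sox10, the lineage's master factor, was slightly higher, with 91.8 and 90.6 CPM at 4 weeks, against 71.1 and 75.2 CPM at 2 weeks, but its sign reversed (-0.0089) under total-read scaling. Fibroblast, pericyte and smooth muscle markers had 3 of 13 tested higher and 4 lower, and summed to 4267 and 4271 CPM at 4 weeks, against 3647 and 3864 CPM at 2 weeks, nearly all of it Thy1, a surface glycoprotein that neurons also carry, with 3886 and 3902 CPM at 4 weeks, against 3263 and 3488 CPM at 2 weeks, which was among the higher ones. The others that rose were Islr, a secreted leucine-rich repeat protein, with 69.2 and 74.2 CPM at 4 weeks, against 34.5 and 34.0 CPM at 2 weeks (log2 fold change 1.07 ± 0.10, adjusted p = 1.71e-12), and Cnn1, a calponin of smooth muscle, with 75.5 and 74.4 CPM at 4 weeks, against 49.3 and 49.5 CPM at 2 weeks (log2 fold change 0.60 ± 0.09, adjusted p = 8.65e-07). Of those that fell, Myl9, a myosin light chain of smooth muscle, had 35.1 and 28.6 CPM at 4 weeks, against 60.8 and 50.6 CPM at 2 weeks (log2 fold change -0.80 ± 0.11, adjusted p = 3.91e-08), and Fbln1, a matrix fibulin, had 171 and 163 CPM at 4 weeks, against 196 and 207 CPM at 2 weeks (log2 fold change -0.27 ± 0.06, adjusted p = 3.77e-04), but the sign of Fbln1 reversed (0.20) with the length offset. The pericyte potassium channel gene Kcnj8 was not read at 4 weeks and had 9 reads over both 2-week libraries, at least 2.83-fold lower against a floor of 3 reads over the group. Rgs5, another pericyte gene, had 0.149 and 0.632 CPM at 4 weeks, against 3.12 and 2.29 CPM at 2 weeks (log2 fold change -2.76 ± 0.58, adjusted p = 1.92e-04). Endothelial markers summed to 27.9 and 28.9 CPM at 4 weeks, against 29.6 and 25.2 CPM at 2 weeks, and ependymal and choroid plexus markers to 27.1 and 25.1 CPM at 4 weeks, against 31.2 and 30.7 CPM at 2 weeks. Tek and Ly6c1 (endothelial), Actg2 and Des (muscle) and Ugt8a and Opalin (oligodendrocyte) had no read in any of the 4 cortical libraries. Leaving out 1 library ended the call of Sox10 without 4-week replicate 1 (adjusted p = 0.0723), 4-week replicate 2 (adjusted p = 0.0504) or 2-week replicate 1 (adjusted p = 0.0626) and Kcnj8 without 4-week replicate 1 (adjusted p = 0.0534). The log2 fold change of Rgs5 was -2.09 without 4-week replicate 1 and -4.07 without 4-week replicate 2. Calls also ended under total-read scaling for Sox10 and Thy1, in DESeq2 for Sox10, and with the length offset for Sox10 and Fbln1.

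Genes of the extracellular matrix fell, with 15 of 26 tested members lower at 4 weeks, 1 higher and a median of -0.88. Among fibrillar collagens, Col1a2 had 4.63 and 6.32 CPM at 4 weeks, against 28.2 and 28.3 CPM at 2 weeks. Col1a1, the other chain of type I collagen, had 7.92 and 9.63 CPM at 4 weeks, against 29.9 and 37.6 CPM at 2 weeks. Col11a1 had 6.13 and 4.26 CPM at 4 weeks, against 22.9 and 23.6 CPM at 2 weeks. Each collagen was lower in both 4-week libraries, with log2 fold changes of -2.37 ± 0.16, -1.95 ± 0.14 and -2.15 ± 0.18. Sparc, an abundant matricellular glycoprotein, had 119 and 122 CPM at 4 weeks, against 269 and 269 CPM at 2 weeks (log2 fold change -1.16 ± 0.06, adjusted p = 7.21e-23). Lox, which cross-links collagen, had 0 and 2 reads at 4 weeks, against 22 and 13 reads at 2 weeks, that is 2 reads over both 4-week libraries and 35 over both 2-week libraries, lower by 16.5-fold (exact 95% interval 4.23 to 141). Timp3, a matrix-bound protease inhibitor, was the one member that rose, with 26.3 and 23.1 CPM at 4 weeks, against 12.01 and 12.5 CPM at 2 weeks (log2 fold change 1.01 ± 0.16, adjusted p = 1.92e-06). Fn1 (fibronectin), with 10.2 and 10.9 CPM at 4 weeks, against 11.5 and 7.82 CPM at 2 weeks, did not pass the test. Midbrain cultures had 15 members lower and 1 higher, with a median of -0.57.

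Ptbp1, the hairpin's target, had 72.8 and 74.4 CPM at 4 weeks, against 60.8 and 61.1 CPM at 2 weeks, while the mock cortical libraries had 155 and 218 CPM. It was thus 1.21-fold higher at 4 weeks under TMM (log2 fold change 0.27 ± 0.09, adjusted p = 0.0154), and its sign reversed (-0.054) when libraries were scaled to total reads. Ptbp2 had 26.2 and 27.9 CPM at 4 weeks, against 19.8 and 19.96 CPM at 2 weeks (log2 fold change 0.44 ± 0.13, adjusted p = 0.00969), and its sign reversed (-0.18) with an offset for transcript length. Rest, the repressor of neuronal genes outside neurons, had 1.94 and 0.947 CPM at 4 weeks, against 1.87 and 2.43 CPM at 2 weeks and did not pass the test (log2 fold change -0.57 ± 0.47, adjusted p = 0.435). Of 16 tested genes of the PTB, REST and neuronal splicing list, 2 were higher and 6 lower. The largest fall in the list was that of Rbfox3, whose levels near the floor are given above (log2 fold change -2.43, adjusted p = 0.0186). The lower ones also included Elavl3, a neuronal RNA-binding protein, with 12.3 and 12.3 CPM at 4 weeks, against 16.2 and 24.1 CPM at 2 weeks, and Hdac1, a REST corepressor deacetylase, with 48.6 and 52.1 CPM at 4 weeks, against 63.1 and 66.9 CPM at 2 weeks. Celf4, a splicing regulator of excitatory neurons, had 100.4 and 96.0 CPM at 4 weeks, against 121 and 128 CPM at 2 weeks (log2 fold change -0.34 ± 0.07, adjusted p = 2.55e-04). The list had 1 higher and 3 lower members without 4-week replicate 1 and 0 higher and 3 lower without 2-week replicate 2. With 1 library left out, calls ended for Ptbp1 without any one library (adjusted p from 0.0661 to 0.142), Ptbp2 without 4-week replicate 2 (adjusted p = 0.125) or 2-week replicate 2 (adjusted p = 0.0651) and Elavl3 without 2-week replicate 2 (adjusted p = 0.178). The call of Rbfox3 ended, too, without 4-week replicate 1 or 2-week replicate 2. Calls also ended under total-read scaling for Ptbp1 and Ptbp2, in DESeq2 for Ptbp1, Ptbp2 and Rbfox3, and with the length offset for Ptbp1, Ptbp2, Rbfox3, Hdac1 and Celf4.

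Neuronal cytoskeleton and growth genes were mostly lower at 4 weeks, with 12 of 18 tested members lower, 3 higher and a median of -0.63. Tubb2b, a tubulin of immature neurons, had 35.7 and 42.0 CPM at 4 weeks, against 233 and 241 CPM at 2 weeks (log2 fold change -2.61 ± 0.08, adjusted p = 7.59e-33). Dcx, the doublecortin of migrating neurons, had 1.94 and 1.89 CPM at 4 weeks, against 9.20 and 10.7 CPM at 2 weeks. Stmn2, a growth-cone tubulin regulator, had 3.59 and 2.68 CPM at 4 weeks, against 12.01 and 11.9 CPM at 2 weeks. Tubb3, the neuronal class III tubulin, had 6.73 and 5.37 CPM at 4 weeks, against 19.8 and 16.2 CPM at 2 weeks. Those 3 neuronal genes were scarce at either time and fell, with log2 fold changes of -2.37 ± 0.32, -1.92 ± 0.25 and -1.56 ± 0.21. Dpysl3 and Dpysl5, which relay semaphorin signals to the growth cone, had log2 fold changes of -1.49 ± 0.13 and -1.03 ± 0.16. The adhesion molecule gene Ncam1 had 342 and 324 CPM at 4 weeks, against 506 and 543 CPM at 2 weeks (log2 fold change -0.66 ± 0.05, adjusted p = 4.70e-15). The structural microtubule proteins of mature neurites went the other way: Mapt (tau) had 198 and 228 CPM at 4 weeks, against 155 and 164 CPM at 2 weeks (log2 fold change 0.42 ± 0.07, adjusted p = 2.95e-06), and Map1a had 176 and 186 CPM at 4 weeks, against 129 and 129 CPM at 2 weeks (log2 fold change 0.49 ± 0.06, adjusted p = 2.72e-08; its overlap with Ppip5k1 on the other strand could share reads). Map1b had 167 and 173 CPM at 4 weeks, against 150.5 and 139.7 CPM at 2 weeks, but its sign reversed (-0.10) under total-read scaling. Map2, the dendritic microtubule protein, had 20.8 and 21.9 CPM at 4 weeks, against 22.0 and 23.5 CPM at 2 weeks and did not pass the test. Under total-read scaling the list had 0 higher and 13 lower. Leaving out 1 library ended the call of Map1b without 4-week replicate 2 (adjusted p = 0.147) or 2-week replicate 2 (adjusted p = 0.198). Calls were lost, too, under total-read scaling for Mapt, Map1a and Map1b, and with the length offset for Mapt and Map1b.

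Synaptic vesicle and release genes showed no common direction, with 3 of 18 tested members higher, 4 lower and a median of -0.30. Vamp2 (synaptobrevin 2) had 1688 and 1646 CPM at 4 weeks, against 1338 and 1467 CPM at 2 weeks and rose under TMM (log2 fold change 0.25 ± 0.05, adjusted p = 2.02e-05), but its sign reversed under total-read scaling (-0.077) and with the length offset (-0.22). Vamp1, its paralogue, had 74.7 and 71.4 CPM at 4 weeks, against 46.3 and 52.6 CPM at 2 weeks (log2 fold change 0.56 ± 0.09, adjusted p = 2.47e-06). About 12.1% of the 31-base words near the 3′ end of Vamp1 also occur in other genes. The falls included rare transcripts, with Snap25 at 0.448 and 0.632 CPM at 4 weeks, against 1.40 and 2.83 CPM at 2 weeks and Synpr (synaptoporin) at 1.35 and 1.26 CPM at 4 weeks, against 5.46 and 4.58 CPM at 2 weeks. Sv2a, a vesicle glycoprotein, had 8.82 and 9.0 CPM at 4 weeks, against 12.9 and 18.2 CPM at 2 weeks (log2 fold change -0.81 ± 0.20, adjusted p = 0.00123). Syn1, which tethers vesicles, had 17.3 and 18.8 CPM at 4 weeks, against 15.4 and 16.6 CPM at 2 weeks, and an overlapping gene (Araf) could share its reads; it did not pass the test. The list had 2 higher and 2 lower without 4-week replicate 2 and 3 higher and 1 lower without 2-week replicate 2. Calls lost with 1 library left out were those of Snap25 without 4-week replicate 1 (adjusted p = 0.165), 4-week replicate 2 (adjusted p = 0.0854) or 2-week replicate 2 (adjusted p = 0.382) and Sv2a without 2-week replicate 2 (adjusted p = 0.109). The log2 fold change of Snap25 was -1.38 without 2-week replicate 2. Calls also ended under total-read scaling for Vamp2, with the length offset for Vamp2, Snap25 and Sv2a, and in DESeq2 for Snap25.

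Of 15 tested neuropeptide and granin genes, 5 were lower and 2 higher at 4 weeks. Penk, the enkephalin precursor, had 4.33 and 6.00 CPM at 4 weeks, against 26.2 and 32.5 CPM at 2 weeks, 5.71-fold lower at 4 weeks (adjusted p = 5.09e-17). Sst (somatostatin) had 4.33 and 3.32 CPM at 4 weeks, against 7.48 and 10.1 CPM at 2 weeks, Npy had 9.57 and 10.1 CPM at 4 weeks, against 17.2 and 14.2 CPM at 2 weeks, and Scg3, a granin of dense-core vesicles, had 193 and 189 CPM at 4 weeks, against 317 and 330.0 CPM at 2 weeks. All 3 were lower in both 4-week libraries, with log2 fold changes of -1.21 ± 0.23, -0.67 ± 0.20 and -0.76 ± 0.06. Pcsk1n, an inhibitor of prohormone convertase, rose, with 164 and 158 CPM at 4 weeks, against 82.95 and 105 CPM at 2 weeks (log2 fold change 0.78 ± 0.08, adjusted p = 1.47e-10). Of 9 tested genes of transmitter synthesis and transport, 0 were higher and 1 lower. The lower one was Gad1, which makes GABA, with 12.4 and 11.8 CPM at 4 weeks, against 19.2 and 20.1 CPM at 2 weeks (log2 fold change -0.70 ± 0.16, adjusted p = 7.23e-04). Slc17a6 and Chat, for glutamatergic and cholinergic neurons, had no read in the 4 libraries. Of the 19 tested channel and receptor genes, 1 was higher and 3 were lower. Gria1, an AMPA receptor subunit, was the one that rose, with 74.3 and 84.2 CPM at 4 weeks, against 39.4 and 40.3 CPM at 2 weeks (log2 fold change 0.99 ± 0.10, adjusted p = 5.27e-12). Gria2, another subunit, had 2.69 and 2.84 CPM at 4 weeks, against 5.77 and 5.53 CPM at 2 weeks (log2 fold change -1.03 ± 0.32, adjusted p = 0.0133). Of 26 listed neurogenic transcription factors, 10 were tested, 2 were higher and 3 were lower. Pou3f2 (Brn2) had 37.8 and 33.0 CPM at 4 weeks, against 22.1 and 21.8 CPM at 2 weeks and Insm1 had 2.39 and 3.47 CPM at 4 weeks, against 0.780 and 0.405 CPM at 2 weeks, both higher (0.69 ± 0.13 and 2.3 ± 0.58). Dlx1, a factor of GABAergic lineages, had 2.39 and 1.42 CPM at 4 weeks, against 4.52 and 4.18 CPM at 2 weeks, and Sox11, of immature neurons, had 4.48 and 4.42 CPM at 4 weeks, against 9.20 and 7.28 CPM at 2 weeks, both lower (-1.17 ± 0.37 and -0.88 ± 0.26). Sox4, its paralogue, had 15.5 and 10.7 CPM at 4 weeks, against 18.4 and 17.4 CPM at 2 weeks (log2 fold change -0.44 ± 0.17, adjusted p = 0.0470). DESeq2 gave 2 higher and 0 lower. Neurog2, Neurod1 and Tbr1 had no read in the 4 libraries. Without 4-week replicate 2 the neurogenic list had 1 higher and 0 lower, and without 2-week replicate 1 it had 2 higher and 0 lower, while the neuropeptide list had 1 higher and 3 lower without 2-week replicate 1. With 1 library left out, calls ended for Npy without 4-week replicate 1 (adjusted p = 0.0671) or 2-week replicate 1 (adjusted p = 0.152), Gria2 without any one library (adjusted p from 0.0504 to 0.0800), Insm1 without 4-week replicate 2 (adjusted p = 0.0558) or 2-week replicate 2 (adjusted p = 0.0553), Dlx1 without 4-week replicate 2 (adjusted p = 0.181) or 2-week replicate 1 (adjusted p = 0.0755), Sox11 without 4-week replicate 1 (adjusted p = 0.0531), 4-week replicate 2 (adjusted p = 0.0539) or 2-week replicate 1 (adjusted p = 0.138) and Sox4 without 4-week replicate 2 (adjusted p = 0.479), 2-week replicate 1 (adjusted p = 0.180) or 2-week replicate 2 (adjusted p = 0.0875). Calls were lost, too, in DESeq2 for Npy, Gria2, Dlx1, Sox11 and Sox4, and in a fit of the 4 cortical libraries alone and in limma for Sox4.

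Astrocyte markers changed in both directions, with 9 of 31 tested members higher, 11 lower and a median of -0.02. Gfap, given above, did not pass the test (log2 fold change -0.01 ± 0.04, adjusted p = 0.942). Slc1a2, the glutamate transporter GLT-1, had 122 and 124 CPM at 4 weeks, against 137 and 131 CPM at 2 weeks, and Glul (glutamine synthetase) had 914 and 936 CPM at 4 weeks, against 957 and 961 CPM at 2 weeks, neither past the test. Slc1a3, the glutamate transporter GLAST, had 88.5 and 82.4 CPM at 4 weeks, against 134 and 136 CPM at 2 weeks. Aqp4, the astrocytic water channel, had 159.6 and 159 CPM at 4 weeks, against 264 and 248 CPM at 2 weeks. Gja1 (connexin 43) had 20.8 and 16.6 CPM at 4 weeks, against 30.6 and 29.8 CPM at 2 weeks. These membrane proteins were lower in both 4-week libraries, with log2 fold changes of -0.66 ± 0.07, -0.68 ± 0.06 and -0.69 ± 0.13. Vim, the filament of immature and reactive astrocytes, had 532 and 563 CPM at 4 weeks, against 1238 and 1283 CPM at 2 weeks (log2 fold change -1.20 ± 0.05, adjusted p = 2.30e-25). Atp1b2, a sodium pump beta subunit, had 1276 and 1243 CPM at 4 weeks, against 2208 and 2223 CPM at 2 weeks (log2 fold change -0.82 ± 0.04, adjusted p = 5.63e-22). Aldh1l1, a folate enzyme used as a pan-astrocyte marker, had 19.4 and 17.4 CPM at 4 weeks, against 29.5 and 27.9 CPM at 2 weeks (log2 fold change -0.64 ± 0.13, adjusted p = 1.78e-04). Among those that rose, Mlc1, a membrane protein of perivascular endfeet, had 147 and 144 CPM at 4 weeks, against 77.3 and 71.3 CPM at 2 weeks. Sox9, the astrocyte transcription factor, had 729.7 and 775 CPM at 4 weeks, against 517 and 521 CPM at 2 weeks. Id4, an inhibitor of neurogenic helix-loop-helix factors, had 75.6 and 73.1 CPM at 4 weeks, against 45.4 and 44.5 CPM at 2 weeks. Their rises were 0.97 ± 0.07, 0.54 ± 0.05 and 0.73 ± 0.09 on the log2 scale. Apoe, the lipid carrier, had 13395 and 13147 CPM at 4 weeks, against 11015 and 11534 CPM at 2 weeks (log2 fold change 0.24 ± 0.04, adjusted p = 6.36e-06), with its sign reversed (-0.091) under total-read scaling. Under total-read scaling the list had 4 higher and 19 lower. Apoe lost its call under total-read scaling. With all 12 libraries in the fit, the list had 2 higher and 2 lower. The calls of Slc1a3, Aqp4, Gja1, Aldh1l1, Atp1b2, Sox9 and Apoe were lost in that fit.

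Genes of cholesterol synthesis and its control that passed the test all rose, with 12 of 24 tested members higher at 4 weeks, 0 lower, 12 not past the test and a median of 0.49. Acat2, which makes the first intermediate, had 152 and 161 CPM at 4 weeks, against 112 and 115 CPM at 2 weeks. Hmgcs1, which makes HMG-CoA, had 22.4 and 24.9 CPM at 4 weeks, against 16.8 and 13.6 CPM at 2 weeks. Idi1, which isomerises isopentenyl diphosphate, had 2.24 and 1.74 CPM at 4 weeks, against 0.312 and 0.405 CPM at 2 weeks. Each was higher in both 4-week libraries, by 0.47 ± 0.07, 0.64 ± 0.15 and 2.42 ± 0.69 on the log2 scale. Msmo1, a sterol demethylase, had 250.2 and 247 CPM at 4 weeks, against 126 and 135 CPM at 2 weeks (log2 fold change 0.93 ± 0.06, adjusted p = 2.56e-17), and Sc5d, a sterol desaturase, had 111 and 111 CPM at 4 weeks, against 65.5 and 58.9 CPM at 2 weeks (log2 fold change 0.84 ± 0.08, adjusted p = 3.81e-12), both higher. Of the controls of the pathway, Insig1, which holds SREBP in the endoplasmic reticulum, had 242 and 249 CPM at 4 weeks, against 154 and 163 CPM at 2 weeks. Srebf2, the master factor SREBP-2, had 80.1 and 73.9 CPM at 4 weeks, against 62.1 and 63.4 CPM at 2 weeks. Both rose, by 0.63 ± 0.06 for Insig1 and 0.30 ± 0.08 for Srebf2, and the sign of Srebf2 reversed (-0.029) under total-read scaling. Scaled to total reads, 7 higher and 2 lower members were called, with a median of 0.17. The sterol regulatory element TCACNCCAC, searched on both strands, was found in 1 of 18 RefSeq windows of the list, that of Hmgcs1 (chr13:119690189-119690248, plus strand; element in capitals), and in 1.44% of all genes' windows. Calls lost with 1 library left out were those of Hmgcs1 without 2-week replicate 2 (adjusted p = 0.0610), Idi1 without 4-week replicate 1 (adjusted p = 0.0720) and Srebf2 without 4-week replicate 1 (adjusted p = 0.182). Calls were lost, too, under total-read scaling for Acat2, Hmgcs1 and Srebf2, and in DESeq2 for Idi1 and Srebf2.
Hmgcs1: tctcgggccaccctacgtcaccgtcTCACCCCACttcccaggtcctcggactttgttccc
Genes of fatty acid synthesis and sterol efflux split, with 4 of 17 tested members higher and 2 lower. Fasn, the fatty acid synthase, had 208 and 191 CPM at 4 weeks, against 139 and 147 CPM at 2 weeks (log2 fold change 0.48 ± 0.07, adjusted p = 5.06e-08), while Abca1, which exports cholesterol, had 57.4 and 55.3 CPM at 4 weeks, against 63.8 and 60.4 CPM at 2 weeks and did not pass the test. The list had 2 higher and 1 lower without 4-week replicate 2 and 2 higher and 3 lower without 2-week replicate 2. Fasn lost its call under total-read scaling.

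**Figure D3:**
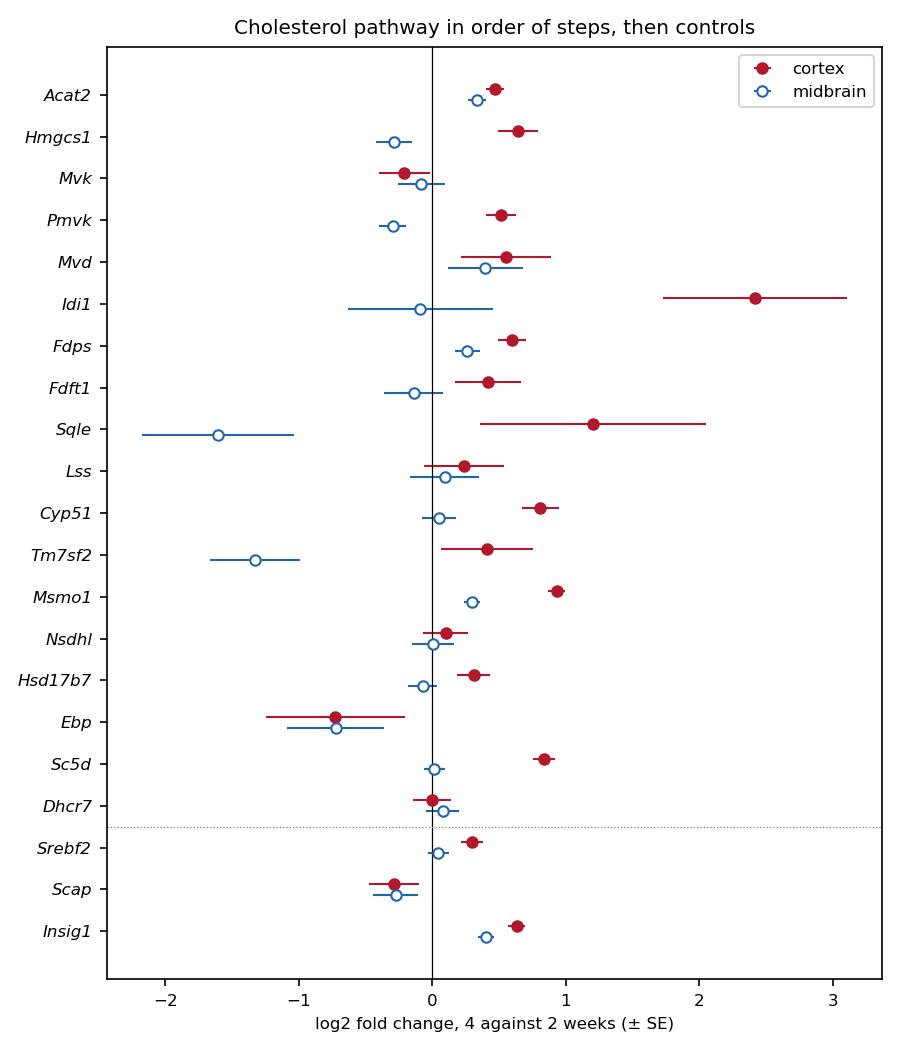
Log2 fold change of 4 against 2 weeks (± SE from the fit) for named genes of the cholesterol pathway in the order of its steps from top to bottom, then its controls, in cortical (filled) and midbrain (open) cultures. Msmo1 and Sc5d lie furthest right of 0 in cortex among genes with narrow error bars.

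Mitochondrially encoded transcripts took a larger share of the reads at 4 weeks, as given above, by 9.78 percentage points. With 2 against 2 libraries an exact two-sided permutation test cannot give a p below 0.333, so the share is given without a test. Of 15 tested mitochondrial genes, 14 were higher and 0 lower, with a median of 0.58. The complex I subunit gene mt-Nd4 had 288380.0 and 300113 CPM at 4 weeks, against 176593 and 188390.0 CPM at 2 weeks (log2 fold change 0.69 ± 0.04, adjusted p = 1.94e-21). Another complex I gene, mt-Nd5, had 95317 and 96349 CPM at 4 weeks, against 53237 and 57158 CPM at 2 weeks (log2 fold change 0.80 ± 0.04, adjusted p = 1.23e-23). The cytochrome b gene mt-Cytb had 14576 and 15018 CPM at 4 weeks, against 8813 and 9179 CPM at 2 weeks (log2 fold change 0.72 ± 0.04, adjusted p = 3.98e-21). One ribosomal RNA of the organelle, mt-Rnr1, had 8041 and 8364 CPM at 4 weeks, against 8099.8 and 8267 CPM at 2 weeks and did not pass the test. Scaled to total reads, the list had 13 higher and 2 lower; with all 12 libraries in the fit it had 0 higher and 0 lower. About 24.9% of the 31-base words near the 3′ end of mt-Nd5 also occur in other annotated genes, and mt-Nd4 overlaps mt-Nd4l, so that single counts are uncertain. Nuclear genes of the respiratory chain were set beside them: of 39 tested, 2 were higher and 6 lower, with a median of -0.03. Sdhb, the iron-sulphur subunit of complex II, had 11.96 and 8.37 CPM at 4 weeks, against 17.8 and 16.3 CPM at 2 weeks and Sdhd, a membrane anchor, 16.9 and 18 CPM at 4 weeks, against 28.5 and 24.3 CPM at 2 weeks, both lower (-0.74 ± 0.18 and -0.59 ± 0.14). Under the length offset this list had 8 higher and 4 lower, and scaled to total reads 0 higher and 28 lower. Leaving out 1 library ended the call of Sdhb without 4-week replicate 2 (adjusted p = 0.0773).

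**Figure D4:**
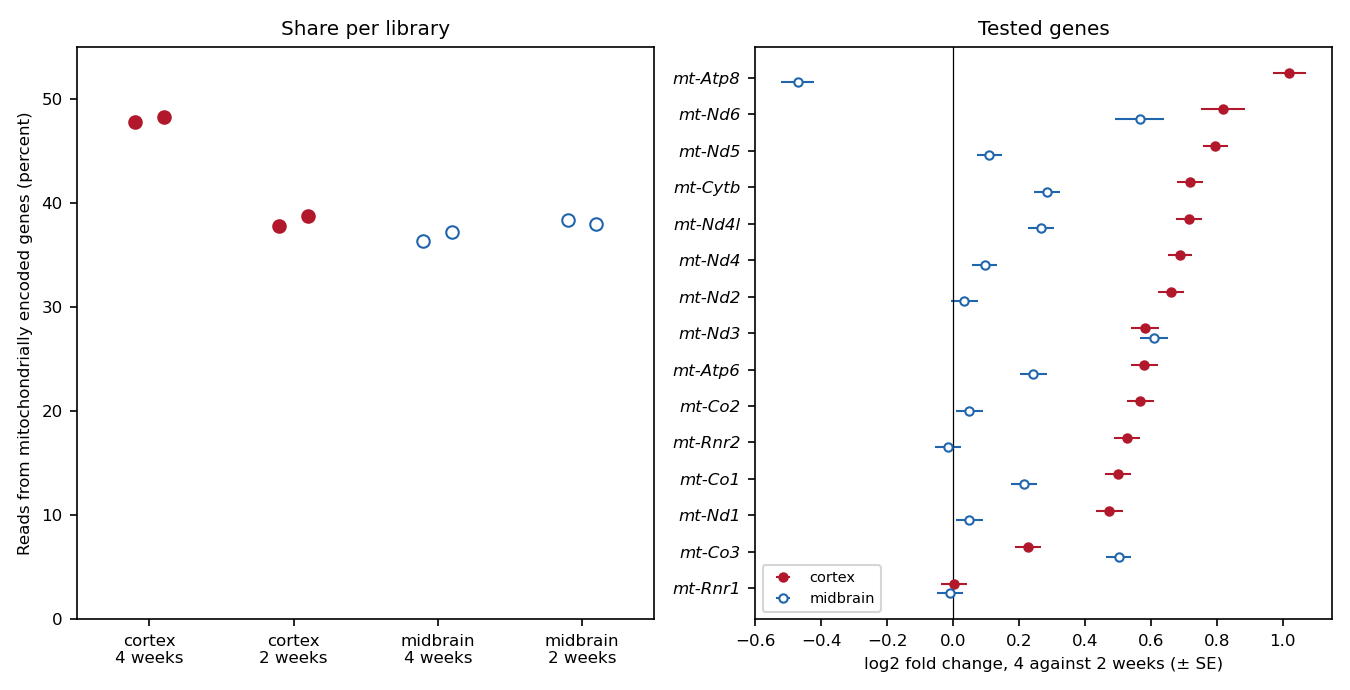
Share of reads from mitochondrially encoded genes in each of the 8 shPTB libraries, in percent (left), and log2 fold change of 4 against 2 weeks with its SE for the 15 tested mitochondrial genes in cortex and midbrain (right). The cortical 4-week libraries lie near 48%, and the other 6 between 36% and 39%.

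Glycolytic and hypoxia-induced genes were mostly lower, with 13 of 25 tested members lower, 3 higher and a median of -0.32. Pfkp, a phosphofructokinase, had 63.8 and 64.6 CPM at 4 weeks, against 145 and 133 CPM at 2 weeks (log2 fold change -1.11 ± 0.08, adjusted p = 2.00e-17). Ldha, a lactate dehydrogenase subunit, had 72.0 and 71.5 CPM at 4 weeks, against 107 and 113 CPM at 2 weeks (log2 fold change -0.62 ± 0.07, adjusted p = 1.04e-09). Car9, the carbonic anhydrase induced by hypoxia, had 3 and 0 reads at 4 weeks, against 50 and 49 reads at 2 weeks, that is 3 reads over both 4-week libraries and 99 over both 2-week libraries, lower by 31.1-fold (exact 95% interval 10.3 to 153). Slc2a1, the glucose transporter GLUT1, rose, with 73.5 and 76.9 CPM at 4 weeks, against 59.3 and 56.5 CPM at 2 weeks (log2 fold change 0.38 ± 0.08, adjusted p = 4.68e-04). Scaled to total reads, the list had 0 higher and 18 lower. Slc2a1 lost its call under total-read scaling.

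Cytosolic ribosomal protein genes were higher under TMM, with 16 of 25 tested members higher, 0 lower and a median of 0.37, but the list had 5 higher and 4 lower under total-read scaling (median 0.04). Rpl15 had 482 and 515 CPM at 4 weeks, against 311 and 328 CPM at 2 weeks (log2 fold change 0.64 ± 0.05, adjusted p = 1.51e-14). Ribosomal protein genes share sequence with many processed pseudogenes, so single values are uncertain. For Rpl10, 77.0% of the 31-base words near its 3′ end also occur in other genes. Rpl10 had 23.6 and 31.3 CPM at 4 weeks, against 1.72 and 1.62 CPM at 2 weeks and did not pass the test (log2 fold change 4.03 ± 0.99, adjusted p = 0.0569), but it was called in 5 of 16 alternatives, which were DESeq2, a stricter count filter, the length offset, the 4 cortical libraries alone and limma.

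Genes of the integrated stress and unfolded protein responses were lower in part, with 10 of 25 tested members lower, 2 higher and a median of -0.30. Atf3, an early stress factor, was not read at 4 weeks and had 13 reads over both 2-week libraries, at least 4.08-fold lower. Asns (asparagine synthetase) had 24.4 and 28.3 CPM at 4 weeks, against 42.9 and 45.3 CPM at 2 weeks, and Slc7a11, the cystine importer, had 31.4 and 33.2 CPM at 4 weeks, against 53.2 and 47.7 CPM at 2 weeks. Chac1, which degrades glutathione, had 6.73 and 9.95 CPM at 4 weeks, against 16.5 and 16.3 CPM at 2 weeks. Asns, Slc7a11 and Chac1 were lower in both 4-week libraries, with log2 fold changes of -0.75 ± 0.11, -0.64 ± 0.11 and -0.98 ± 0.20. Going the other way, Sesn2, a stress-induced inhibitor of mTORC1, had 44.4 and 46.3 CPM at 4 weeks, against 26.8 and 23.9 CPM at 2 weeks (log2 fold change 0.84 ± 0.12, adjusted p = 6.53e-08), and Phgdh, the first enzyme of serine synthesis, had 195 and 205 CPM at 4 weeks, against 111 and 102 CPM at 2 weeks (log2 fold change 0.91 ± 0.07, adjusted p = 4.86e-16), although 47.9% of its 31-base words occur in other genes. Hspa5 (BiP), with 9.71 and 9.47 CPM at 4 weeks, against 12.3 and 13.9 CPM at 2 weeks, did not pass the test. Chac1 lost its call with the length offset.

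Of 16 tested oxidative stress, iron and metallothionein genes, 6 were higher and 3 lower. Mt2, a metallothionein, had 565 and 589 CPM at 4 weeks, against 409 and 424 CPM at 2 weeks, and Gsta4, a glutathione transferase for lipid peroxides, had 59.8 and 68.1 CPM at 4 weeks, against 45.2 and 41.5 CPM at 2 weeks, both higher (0.47 ± 0.05 and 0.56 ± 0.10). Prdx1, a peroxiredoxin, had 485 and 499 CPM at 4 weeks, against 616 and 617 CPM at 2 weeks, with a log2 fold change of -0.33 ± 0.05. Lysosomal genes split, with 5 of 23 tested members higher and 6 lower. Ctsb, the protease cathepsin B, had 236 and 229 CPM at 4 weeks, against 509 and 536 CPM at 2 weeks. Ctsd, cathepsin D, had 192 and 177 CPM at 4 weeks, against 292 and 316 CPM at 2 weeks. Gpnmb, a glycoprotein of stressed lysosomes, had 7.17 and 8.53 CPM at 4 weeks, against 28.8 and 27.5 CPM at 2 weeks. These 3 were lower in both 4-week libraries, with log2 fold changes of -1.17 ± 0.05, -0.72 ± 0.06 and -1.84 ± 0.15. Npc2, which carries cholesterol inside lysosomes, rose, with 987 and 976 CPM at 4 weeks, against 717 and 728 CPM at 2 weeks (log2 fold change 0.44 ± 0.05, adjusted p = 4.30e-11), as did the autophagy adaptor gene Sqstm1, with 542 and 553 CPM at 4 weeks, against 395 and 390.0 CPM at 2 weeks (log2 fold change 0.48 ± 0.05, adjusted p = 2.20e-11). Gsta4 lost its call under total-read scaling.

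Of 28 listed proliferation genes, all had reads and 16 had enough to be tested. Of these, 3 were lower and 1 was higher at 4 weeks, with a median of -0.93. Top2a, a topoisomerase of dividing cells, had 2.54 and 3.47 CPM at 4 weeks, against 8.42 and 7.42 CPM at 2 weeks (log2 fold change -1.39 ± 0.27, adjusted p = 5.95e-05). Mki67, the marker of cycling cells, had 2 and 0 reads at 4 weeks, against 10 and 20 reads at 2 weeks, that is 2 reads over both 4-week libraries and 30 over both 2-week libraries, lower by 14.1-fold (exact 95% interval 3.58 to 122), with 21.9% of its 31-base words shared with a predicted gene. Mcm7, of the replicative helicase, rose, with 30.2 and 33.5 CPM at 4 weeks, against 23.7 and 24.4 CPM at 2 weeks (log2 fold change 0.40 ± 0.12, adjusted p = 0.0120; it overlaps Cops6 and shares 36.6% of its 31-base words with a pseudogene). Of 18 tested cell-cycle inhibitors, D cyclins and p53 targets, 1 was higher and 2 were lower. Cdkn1a (p21), with 48.0 and 50.4 CPM at 4 weeks, against 47.6 and 46.4 CPM at 2 weeks, did not pass the test. Ccng1, a p53 target, had 123 and 129.9 CPM at 4 weeks, against 173 and 153 CPM at 2 weeks (log2 fold change -0.36 ± 0.07, adjusted p = 2.52e-05), and Gadd45g, a growth-arrest gene, had 69.6 and 75.8 CPM at 4 weeks, against 106 and 104 CPM at 2 weeks (log2 fold change -0.53 ± 0.08, adjusted p = 2.28e-07). Among immediate early genes, 3 of 13 tested were lower and 0 higher. Ier3 had 4.93 and 7.26 CPM at 4 weeks, against 14.7 and 17.5 CPM at 2 weeks, Fosl2 had 20.9 and 21.2 CPM at 4 weeks, against 36.6 and 34.5 CPM at 2 weeks and Fos had 4.33 and 3.32 CPM at 4 weeks, against 6.70 and 7.55 CPM at 2 weeks, with changes of -1.41 ± 0.19, -0.76 ± 0.12 and -0.90 ± 0.25. The list of inhibitors, cyclins and p53 targets had 1 higher and 4 lower without 4-week replicate 1. With 1 library left out, calls ended for Mcm7 without 4-week replicate 2 (adjusted p = 0.192), 2-week replicate 1 (adjusted p = 0.0682) or 2-week replicate 2 (adjusted p = 0.0602) and Fos without 4-week replicate 2 (adjusted p = 0.0767) or 2-week replicate 2 (adjusted p = 0.0547). Calls also ended with the length offset for Top2a, Mcm7 and Fosl2, and under total-read scaling and in DESeq2 for Mcm7.

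Neural progenitor genes were higher in 3 and lower in 2 of 17 tested members. Nr2e1 (Tlx), an orphan receptor of neural stem cells, had 22.0 and 24.2 CPM at 4 weeks, against 9.04 and 9.71 CPM at 2 weeks (log2 fold change 1.29 ± 0.18, adjusted p = 5.29e-08). Msi2, an RNA-binding protein of progenitors, had 54.7 and 55.1 CPM at 4 weeks, against 31.8 and 36.3 CPM at 2 weeks (log2 fold change 0.69 ± 0.11, adjusted p = 1.39e-06). Cd24a, a surface glycoprotein, had 25.4 and 20.4 CPM at 4 weeks, against 49.0 and 47.5 CPM at 2 weeks (log2 fold change -1.07 ± 0.11, adjusted p = 6.77e-12). Nes (nestin), with 2.69 and 2.05 CPM at 4 weeks, against 1.72 and 2.29 CPM at 2 weeks, and Sox2, with 13.9 and 14.5 CPM at 4 weeks, against 10.4 and 17.0 CPM at 2 weeks, did not pass the test. In the Notch pathway 3 of 13 tested members were higher and 1 was lower. Lfng, which glycosylates Notch, had 64.6 and 63.2 CPM at 4 weeks, against 51.6 and 49.8 CPM at 2 weeks (log2 fold change 0.33 ± 0.09, adjusted p = 0.00279), and the receptor gene Notch3 had 3.59 and 3.95 CPM at 4 weeks, against 8.11 and 5.66 CPM at 2 weeks (log2 fold change -0.86 ± 0.26, adjusted p = 0.0120; Gm17276 overlaps it on the other strand). No member of the pathway was higher under total-read scaling, where the list had 0 higher and 3 lower. The Notch list had 0 higher and 0 lower without 4-week replicate 1, 1 higher and 2 lower without 4-week replicate 2 and 1 higher and 1 lower without 2-week replicate 2. Leaving out 1 library ended the call of Lfng without 4-week replicate 1 (adjusted p = 0.0552) or 2-week replicate 2 (adjusted p = 0.0567) and Notch3 without 4-week replicate 1 (adjusted p = 0.0813) or 2-week replicate 1 (adjusted p = 0.221). Calls were lost, too, with the length offset for Msi2 and Lfng, under total-read scaling for Lfng, and in DESeq2 for Notch3.

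Some retinoid genes rose and others fell, with called shares near those over all genes tested. Aldh1a1, which makes retinoic acid from retinal, had 939 and 893 CPM at 4 weeks, against 271 and 275 CPM at 2 weeks (log2 fold change 1.74 ± 0.05, adjusted p = 2.26e-32). Aldh1a7, its close paralogue in rodents, rose 17.5-fold, with 788 and 811 CPM at 4 weeks, against 49.9 and 41.9 CPM at 2 weeks (adjusted p = 3.23e-42). Rlbp1, a carrier of retinal, had 841 and 884 CPM at 4 weeks, against 369 and 380.4 CPM at 2 weeks (log2 fold change 1.20 ± 0.05, adjusted p = 6.03e-26). Against these, the retinoic acid carrier gene Crabp1 had 10.01 and 10.4 CPM at 4 weeks, against 38.8 and 38.4 CPM at 2 weeks (log2 fold change -1.92 ± 0.13, adjusted p = 9.004e-18), and Aldh1a2 had 6.28 and 6.16 CPM at 4 weeks, against 12.5 and 9.98 CPM at 2 weeks (log2 fold change -0.84 ± 0.20, adjusted p = 0.00106). Of 16 tested members of the list, which does not hold Aldh1a7, 2 were higher and 2 lower, where 11.2% of all genes were higher and 12.3% lower. Clock genes were higher in 3 and lower in 0 of 12 tested members. Tef, a clock-controlled transcription factor, had 62.6 and 59.8 CPM at 4 weeks, against 31.03 and 34.7 CPM at 2 weeks (log2 fold change 0.90 ± 0.11, adjusted p = 1.66e-09), and Nr1d1 (Rev-erb alpha) had 1859.9 and 1875 CPM at 4 weeks, against 1477 and 1607 CPM at 2 weeks but reversed its sign (-0.050) under total-read scaling. Of 15 tested patterning genes and GDNF-family receptors, 3 were higher and 1 was lower. Gfra2, the neurturin co-receptor, had 84.4 and 89.7 CPM at 4 weeks, against 33.2 and 27.6 CPM at 2 weeks (log2 fold change 1.52 ± 0.11, adjusted p = 4.01e-17), and Ret, the signalling receptor of the family, had 19.9 and 23.2 CPM at 4 weeks, against 61.3 and 61.6 CPM at 2 weeks (log2 fold change -1.51 ± 0.12, adjusted p = 2.55e-15). Calls also ended with the length offset for Tef, and under total-read scaling for Nr1d1.

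The largest rises among all protein-coding genes with at least 10 CPM included Aldh1a7 and H2-T23, described above, and Col22a1, a collagen of tissue junctions, with 46.3 and 51.9 CPM at 4 weeks, against 8.58 and 9.84 CPM at 2 weeks (log2 fold change 2.41 ± 0.15, adjusted p = 4.13e-19). Ppp1r1b (DARPP-32), a phosphatase inhibitor of dopamine-responsive neurons, had 92.4 and 106 CPM at 4 weeks, against 21.8 and 22.2 CPM at 2 weeks (log2 fold change 2.17 ± 0.12, adjusted p = 2.41e-20). Fezf2, a forebrain transcription factor, had 10.9 and 9.16 CPM at 4 weeks, against 3.59 and 2.56 CPM at 2 weeks, and Fzd6, a Wnt receptor, had 10.9 and 11.8 CPM at 4 weeks, against 2.96 and 4.45 CPM at 2 weeks. Both rose without overlap between the groups (1.72 ± 0.28 and 1.60 ± 0.26). Chrna3, a nicotinic acetylcholine receptor subunit, had 90.7 and 101 CPM at 4 weeks, against 33.8 and 40.0 CPM at 2 weeks (log2 fold change 1.37 ± 0.09, adjusted p = 2.40e-17). Among the falls chosen by the same rule, the largest was that of Reg3g, a secreted antibacterial lectin, with 0.747 and 0.158 CPM at 4 weeks, against 25.7 and 23.1 CPM at 2 weeks (log2 fold change -5.68 ± 0.28, adjusted p = 1.28e-22). Lrg1, an acute-phase glycoprotein, had 0.448 and 1.11 CPM at 4 weeks, against 12.2 and 13.2 CPM at 2 weeks (log2 fold change -4.02 ± 0.33, adjusted p = 2.70e-14). Ccl3, a chemokine of myeloid cells, had 1.35 and 1.11 CPM at 4 weeks, against 14.5 and 14.2 CPM at 2 weeks, and Cybb, the phagocyte NADPH oxidase, had 1.35 and 1.11 CPM at 4 weeks, against 13.6 and 14.2 CPM at 2 weeks. Those myeloid genes had log2 fold changes of -3.53 ± 0.30 and -3.48 ± 0.30, in the libraries in which the microglial sum fell. Calb2 (calretinin), a calcium buffer of interneurons, had 17.0 and 17.7 CPM at 4 weeks, against 135 and 139 CPM at 2 weeks (log2 fold change -2.98 ± 0.10, adjusted p = 1.10e-30). The log2 fold change of Reg3g was -7.16 without 4-week replicate 1 and -5.02 without 4-week replicate 2, and of Lrg1 was -4.81 without 4-week replicate 2. Col22a1 lost its call with the length offset.

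The cortical change was set against the midbrain change in the same fit. For 19.1% of all genes tested the 2 regions' changes differed, with a positive difference (cortex minus midbrain) in 8.13% and a negative one in 11.0%. With all 12 libraries in the fit, 61 differences were called. In that fit 9 of the 16 called differences named below lost their call. They were those of C3, Gria1, Tubb2b, Sc5d, Msmo1, Ptbp1, mt-Nd4, Gfap and Aldh1a1. The counts and values that follow are from the fit without mock libraries. Among interferon-stimulated genes the difference was negative for 20 of 28 tested members and positive for 0. Ifit1 had 67.5 and 70.4 CPM at 4 weeks, against 30.5 and 29.2 CPM at 2 weeks in midbrain cultures, a rise where cortex fell (difference -3.68 ± 0.16, adjusted p = 1.41e-24). Oasl2 had 18.9 and 21.8 CPM at 4 weeks, against 16.5 and 15.2 CPM at 2 weeks in midbrain (difference -4.09 ± 0.27). Among reactive genes the difference was negative for 13 of 19 and positive for 0. Serpina3n in midbrain had 1364 and 1382 CPM at 4 weeks, against 1684 and 1649 CPM at 2 weeks (difference -2.75 ± 0.07, adjusted p = 2.00e-36). Lcn2 and C3 differed by -2.58 ± 0.06 and -1.80 ± 0.06, and midbrain C3 was higher at 4 weeks (0.54 ± 0.04). For microglial markers, whose fall was shared, the difference passed for 3 of 12 members on the negative side and 0 on the positive side. Spi1 and Fcer1g did not pass it (adjusted p = 0.971 and 0.128).

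**Figure D5:**
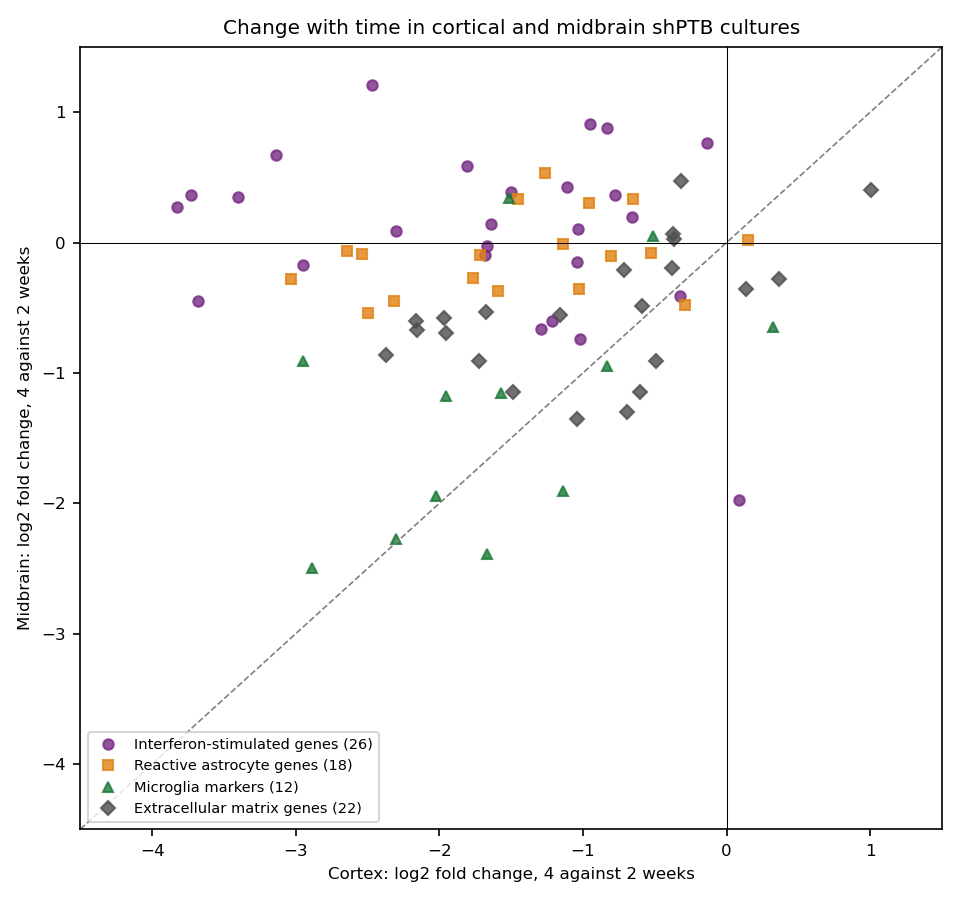
Log2 fold change of 4 against 2 weeks in cortex (horizontal) and midbrain (vertical) for tested members of 4 lists, with the diagonal of equal change. All but 1 interferon-stimulated and all but 1 reactive gene lie left of the vertical zero line, most of them near or above the horizontal one, and most microglial and matrix genes lie below the horizontal one as well. Genes with 3 or fewer reads in a cortical group are left out.

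Matrix genes fell in both regions, and the difference was negative for 11 of 26 members. Col1a2 in midbrain had 39.7 and 43.5 CPM at 4 weeks, against 73.7 and 77.2 CPM at 2 weeks (difference -1.51 ± 0.19, adjusted p = 2.13e-08). Cholesterol genes had a positive difference for 9 of 24 members and a negative one for 0. Sc5d in midbrain had 60.4 and 62.9 CPM at 4 weeks, against 62.7 and 59.6 CPM at 2 weeks (difference 0.82 ± 0.11, adjusted p = 1.05e-07). Msmo1 rose in both regions (difference 0.63 ± 0.09). Mitochondrial genes differed in the positive direction for 11 of 15 members, with mt-Nd4 at 0.59 ± 0.05. Among neuronal genes, Tubb2b fell in both regions and further in cortex (difference -1.37 ± 0.10), Penk differed by -1.93 ± 0.22, and Dcx did not pass (adjusted p = 0.207). Gria1 had 44.7 and 38.8 CPM at 4 weeks, against 41.7 and 44.5 CPM at 2 weeks in midbrain (difference 1.03 ± 0.13). Crabp1 rose in midbrain (0.62 ± 0.06) and fell in cortex (difference -2.54 ± 0.14), while Aldh1a1 rose in both (difference 0.31 ± 0.07). The difference for Aldh1a1 lost its call under total-read scaling and without 4-week replicate 1 (adjusted p = 0.0683). Gfap was higher at 4 weeks in midbrain, with 6903 and 6536 CPM at 4 weeks, against 5181 and 4851 CPM at 2 weeks (difference -0.43 ± 0.06, adjusted p = 8.06e-08). Ptbp1 rose in midbrain (0.69 ± 0.07), while its cortical rise was smaller and lost its call in several fits, as given above (difference -0.42 ± 0.11, adjusted p = 0.00475).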

How the data were processed

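Bulk RNA sequencing of 12 libraries from C57BL/6 mouse astrocyte cultures was used, of which 4 make the comparison. The submitters' processing notes name cutadapt 2.3, Salmon 0.14.1, DESeq2 and the mm10 build, and the file headers are those of Salmon; neither the annotation release nor a strand setting was given in the sources used here. The labels' protocols describe a biotinylated primer for reverse transcription of total RNA and random primers for the second strand. The authors deposited, per transcript, estimated counts of reads, TPM (a transcript level scaled by effective length) and effective lengths, as the file headers name them; TPM was not used. Estimated counts were summed per gene over GENCODE mouse M21, where 139921 of 140658 transcripts matched (unmatched reads at most 0.208% of a library), and rounded to whole numbers.

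edgeR 4.0.16 (R 4.3.3) fitted its robust quasi-likelihood model to the 8 shPTB libraries in 4 groups, with TMM factors, after filterByExpr (minimum count 10, minimum total 15). A gene was called at a Benjamini-Hochberg adjusted p under 0.05 over all 12382 genes tested. The same fit gave the midbrain change and the difference of both changes. The script was tested on simulated data. Libraries held 6022098 to 7958229 reads in cortex, and a group with no read was set to 3 reads in all. Groups with 1 to 3 reads have ratios with exact 95% intervals. These cover counting error only.

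The genes named are Ptbp1, Ptbp2, Rest and 12 astrocyte and neuron markers, the up to 3 largest rises and falls past the threshold in each of 34 lists (777 genes, 602 tested), and the 12 largest rises and falls among protein-coding genes whose mean reaches 10 CPM at 4 or 2 weeks and whose libraries do not overlap between the times; other list members are given with their values. Not every gene the rule allows is printed. Members, lists and tests were chosen with earlier results of these data known. Alternatives were RLE factors, total-read scaling, mitochondrial genes or pseudogenes left out, DESeq2 1.42.0, no filter or a strict one (5 CPM in 2 libraries), an offset for transcript length, the replicate number as a block, fits of the 4 cortical or all 12 libraries, limma 3.58.1 with library weights, and each cortical library left out. Promoter windows are from RefSeq (GRCm38.p6).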

Additional observations from a re-analysis of the deposited data

Results flagged for a closer look

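For 16 of the 19 genes whose cortical and midbrain changes were compared by name, the difference of the changes (cortex minus midbrain, log2) passed the adjusted threshold in the interaction test of edgeR. Over all 12382 genes tested the share was 19.1%. The 19 genes were picked with earlier results known, so their count does not measure how often the regions differ. Groups of 2 libraries are too small for a check of single libraries within a group. Negative differences were found for the interferon-stimulated genes Oasl2 (-4.09) and Ifit1 (-3.68), for the reactive genes Serpina3n (-2.75), Lcn2 (-2.58) and C3 (-1.80), and for Col1a2 (-1.51). Also negative were Crabp1 (-2.54), Penk (-1.93), Tubb2b (-1.37), Gfap (-0.43) and Ptbp1 (-0.42). Positive differences were found for Gria1 (1.03), Sc5d (0.82), Msmo1 (0.63), mt-Nd4 (0.59) and Aldh1a1 (0.31). With all 12 libraries in the fit, these 5 calls and those of C3, Tubb2b, Gfap and Ptbp1 were lost.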

How the results depend on the processing

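DESeq2 called 1743 genes between 4 and 2 weeks, against 2911 in edgeR, and 1247 differences of regions, against 2365. With all 12 libraries in the fit, which adds the mock pairs that lay further apart, 377 genes and 61 differences were called. Leaving out 1 cortical library gave 2136 to 2317 genes and 1877 to 2049 differences, the lone library being assumed to vary like the other groups. The other settings gave counts within 1.5 times, but total-read scaling called 4079 genes, of which 1911 were shared. Under that scaling the sign reversed for Ptbp1 (-0.054), Map1b (-0.10), Vamp2 (-0.077), B2m (-0.080), Nr1d1 (-0.050), Sox10 (-0.0089), Thy1 (-0.12), Apoe (-0.091) and Srebf2 (-0.029). With the length offset it reversed for Ptbp2 (-0.18), Vamp2 (-0.22) and Fbln1 (0.20). The causes were not tested. Of 157 called genes named, 138 kept their call under total-read scaling, 134 with the length offset, 139 in DESeq2 and 140 to 145 with 1 library left out. RLE factors kept all 157, and the fit of all 12 libraries kept 67. The labels do not say that replicate numbers pair samples, and deviations of same-numbered cortical libraries correlated at -6.21e-04. A replicate block gave 3001 genes and 2460 differences. With it, all 157 calls were kept. The difference in mitochondrial share, 9.78 percentage points, was 10.1 over coding and mitochondrial reads. Changes in transcripts with few reads, such as Cd14 and Oas1b, are limited by depth.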
